A study of Mus musculus with 8 samples.

Results

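The Ly6 genes encode small proteins that are tethered to the outside of the cell by a glycosylphosphatidylinositol (GPI) lipid anchor and share a compact, disulphide-bonded fold. Several of them are antigens by which blood cells are sorted: Ly6a is Sca-1, the surface marker of mouse haematopoietic stem and progenitor cells, Ly6C (the products of Ly6c1 and Ly6c2) marks inflammatory monocytes, and Ly6d appears as lymphoid progenitors commit to the B lineage. Ly6a, Ly6c2 and Ly6e are also known as genes that interferons raise.

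The 6 genes described here, Ly6a, Ly6c1, Ly6c2, Ly6d, Ly6e and Ly6i, were the rows with those symbols among 24902 in a matrix of gene read counts. They were chosen with these data in view: Ly6a and Ly6i had been seen to be low in the only library of one genotype, so the values of that library are given as a description, with no test. All 6 had a count in all 8 libraries and passed the filter on low counts, which left 13173 genes for testing.

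Each library was bulk RNA-seq of splenic B cells, isolated by a pan-B negative selection, from 1 C57BL/6N-labelled mouse that had reached the early removal criteria for advanced disease. The 4 Eµ-PRMT5 mice carried human PRMT5, an arginine methyltransferase, under an immunoglobulin heavy-chain promoter and Eµ enhancer that are active in immature and mature B cells. The 3 Eµ-PRMT5/TCL1 mice carried the transgenes Eµ-hPRMT5 and Eµ-hTCL1 together, from a cross with the Eµ-TCL1 line, which models chronic lymphocytic leukaemia (CLL). A single Eµ-TCL1 mouse carried Eµ-hTCL1 alone. Every mouse thus bore at least one transgene, there was no nontransgenic control, and neither age nor sex was given for single mice. The title of Eµ-PRMT5 mouse 2 is an identifier that the study's methods give to a transgenic founder, and the founder line of each mouse was not otherwise labelled. Counts per library summed to between 3356297 and 10252426. Pairs of libraries correlated over genes at Spearman's rho of 0.828 to 0.954, and the lowest values were between the Eµ-TCL1 mouse and an Eµ-PRMT5 mouse. All 8 pan-B markers in the B-cell list, such as Cd79a and Ms4a1, were present in every mouse, with a summed level of 2219 to 9261 CPM (reads scaled to a common library size, with normalization factors from the trimmed mean of M-values).

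The 6 genes lie on chromosome 15 within 349.9 kb of GRCm38, between 74762056 and 75111970. Ly6d (chr15:74762056-74763620) stands apart, 191 kb from Ly6e (chr15:74955051-74959905). Ly6i (chr15:74979534-74983430) and Ly6a (chr15:74994877-74998031) follow at gaps of 19.6 and 11.4 kb. Ly6c1 (chr15:75044018-75048830) and Ly6c2 (chr15:75108158-75111970) lie a further 46 and 59.3 kb on. Ly6e is read from the plus strand and the other 5 from the minus strand. No exon of the 6 overlapped an exon of another annotated gene.

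How alike the transcripts are bears on how reads can be told apart, so the coding sequences of the closest pairs are shown first. Ly6c1 and Ly6c2 were identical at 97.7% of 396 aligned coding bases, and their transcripts shared an unbroken run of 188 bases. Reads were 150 bases long, and 5.61% of the 150-base windows of the Ly6c1 transcript occurred unchanged in Ly6c2. Ly6a and Ly6i were identical at 86.4% of 405 coding bases and shared no 150-base window, the longest common run being 80 bases. The first 150 coding bases of each are given 5′ to 3′ from the GENCODE vM21 transcripts, with the bases that differ within the pair in capitals.
Ly6c1: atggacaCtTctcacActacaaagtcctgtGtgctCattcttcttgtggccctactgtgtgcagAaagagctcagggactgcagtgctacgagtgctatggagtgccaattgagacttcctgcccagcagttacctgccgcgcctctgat
Ly6c2: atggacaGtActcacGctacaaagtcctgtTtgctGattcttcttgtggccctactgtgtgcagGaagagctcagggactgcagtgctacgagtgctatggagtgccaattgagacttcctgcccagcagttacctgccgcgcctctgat
Ly6a: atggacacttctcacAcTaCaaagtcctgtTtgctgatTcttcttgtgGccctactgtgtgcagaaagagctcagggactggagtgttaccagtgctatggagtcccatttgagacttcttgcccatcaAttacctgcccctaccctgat
Ly6i: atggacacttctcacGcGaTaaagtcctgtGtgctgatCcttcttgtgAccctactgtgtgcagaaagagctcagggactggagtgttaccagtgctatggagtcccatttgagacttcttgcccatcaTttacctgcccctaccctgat
In this stretch 6 bases differ between Ly6c1 and Ly6c2 and 7 differ between Ly6a and Ly6i. Ly6a, Ly6c1, Ly6c2 and Ly6i formed a close group, with 81.5% to 97.7% identity among them, while Ly6d and Ly6e stood at 47.1% to 53.8% from every other gene of the 6. Among the 15 pairs, only Ly6c1 and Ly6c2 shared a window of read length. How the counting treated a read that matched both was not stated, so the split between Ly6c1 and Ly6c2 is uncertain.

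By the median over the 8 mice, Ly6e, Ly6d and Ly6a were higher in these libraries than the other 3 genes. Single mice could differ: in Eµ-PRMT5/TCL1 mouse 1, Ly6c2 was at 464 CPM and Ly6a at 404 CPM. Per kilobase of all annotated exons joined, the median level over the 8 mice was 1143 CPM for Ly6d, 692 for Ly6e, 337 for Ly6a, 27.6 for Ly6c2, 7.85 for Ly6i and 0.93 for Ly6c1. That length exceeded the transcript used for the coding sequence for Ly6e (3784 against 2281 bases) and Ly6c2 (2740 against 822). It did so too for Ly6c1 (1677 against 844) and Ly6a (1205 against 819), but not for Ly6d and Ly6i. Levels by transcript length were not computed, so the order depends on the length used. Without division by length, Ly6e was at 1849 to 3718 CPM and Ly6d at 300.2 to 1302 CPM over the 7 mice with the PRMT5 transgene. Per kilobase, Ly6d was above Ly6e in 6 of the 8 mice, so those neighbours in the order did not separate. On the same scale, Ly6e was above Ly6a, and Ly6a above Ly6c2, in 8 of 8 mice. Ly6c2 exceeded Ly6i in 7 of 8 mice, and Ly6i exceeded Ly6c1 in 7 of 8. For each pair of neighbours the ranges over mice overlapped.

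**Figure D1:**
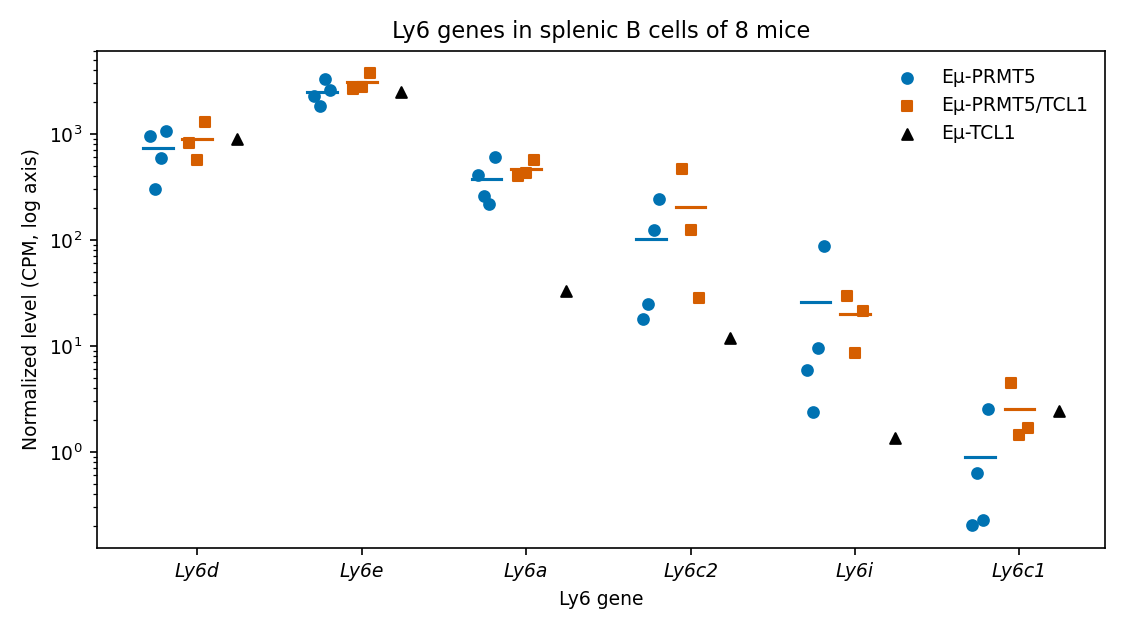
Normalized level of each Ly6 gene (CPM, log axis) in each mouse, with genes ordered by median CPM per kilobase of all annotated exons joined. Points are single mice, short lines are means of the 4 Eµ-PRMT5 and 3 Eµ-PRMT5/TCL1 mice. The Eµ-TCL1 mouse (triangle) lies below all 7 other mice for Ly6a, Ly6c2 and Ly6i and within their range for Ly6d, Ly6e and Ly6c1.

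The comparison of Eµ-PRMT5/TCL1 with Eµ-PRMT5 mice asks how the double transgenic B cells differ from those with PRMT5 alone, and it played no part in choosing the genes. None of the 6 Ly6 genes passed the thresholds of adjusted p under 0.05 and over 4-fold change in edgeR's quasi-likelihood test, and for all 6 the groups overlapped. Over all genes, every double transgenic mouse was above every Eµ-PRMT5 mouse in 1.35% and below in 1.59%. The same thresholds called 0.0% of 13173 genes in either direction, so the test gave no call anywhere. At an unadjusted p under 0.05 there were 126 genes higher (0.957%) and 160 lower (1.21%), none of them a member. DESeq2 on the same counts called 3 genes higher (Ehd2, Rgl1 and Slc9a3r2) and 1 lower (Tcf7), none a member. The biological coefficient of variation was 0.483, and the 95% intervals of the members' fold changes spanned 0 throughout. In all, 5 of the 6 fold changes were above 0, with a median of 0.31 on the log2 scale. Over all genes tested, 5350 of 13173 were above 0 and the median was -0.09.

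Ly6d, the B-lineage antigen, had normalized levels of 963, 300.2, 588 and 1067 CPM in Eµ-PRMT5 mice 1 to 4. In Eµ-PRMT5/TCL1 mice 1 to 3 it had 812, 569 and 1302 CPM, and in the Eµ-TCL1 mouse 889.8 CPM. The highest and the lowest of the 8 values thus came from different genotypes and all 3 genotypes overlapped. The log2 fold change of Eµ-PRMT5/TCL1 over Eµ-PRMT5 was 0.29 (SE 0.48, 95% interval -0.75 to 1.34, edgeR adjusted p = 1.0). Without Eµ-PRMT5/TCL1 mouse 3, the highest, it was -0.08.

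Ly6e, a broadly expressed and interferon-inducible member that influences virus entry, was the steadiest of the 6. It had 2249, 1849, 3308 and 2567 CPM in the Eµ-PRMT5 mice. The Eµ-PRMT5/TCL1 mice had 2671, 2758 and 3718 CPM and the Eµ-TCL1 mouse 2462 CPM. The highest value was 2.01 times the lowest over the 7 mice with the PRMT5 transgene, and no genotype stood apart. The log2 fold change between the replicated genotypes was 0.29 (SE 0.41, 95% interval -0.59 to 1.18, edgeR adjusted p = 1.0).

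Ly6a, which on mature lymphocytes is raised by interferon, had 409, 260.1, 218 and 605 CPM in Eµ-PRMT5 mice 1 to 4. Eµ-PRMT5/TCL1 mice 1 to 3 had 404, 425 and 565 CPM. The double transgenic mice lay inside the range of the Eµ-PRMT5 mice. The log2 fold change was 0.32 (SE 0.40, 95% interval -0.56 to 1.19, edgeR adjusted p = 1.0), and it kept its sign whichever mouse was left out, from 0.13 to 0.65.

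Ly6c2, the main source of Ly6C on monocytes, varied widely within each genotype. Its levels in Eµ-PRMT5 mice 1 to 4 were 18.1, 25, 123 and 245 CPM, and in Eµ-PRMT5/TCL1 mice 1 to 3 they were 464, 124 and 28.3 CPM. Within each genotype the highest mouse exceeded the lowest by 13.6 and 16.4 times. The log2 fold change was 1.00 (SE 0.91, 95% interval -0.97 to 2.97, edgeR adjusted p = 1.0). It turned to -0.44 without Eµ-PRMT5/TCL1 mouse 1, which had the highest level.

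Ly6i, the close relative of Ly6a, was below 30 CPM in all mice but one. It had 5.89, 2.37, 9.57 and 86.9 CPM in the Eµ-PRMT5 mice, the last from 754 reads. The Eµ-PRMT5/TCL1 mice had 29.3, 8.58 and 21.5 CPM. Eµ-PRMT5 mouse 4 alone set the sign of the comparison: the log2 fold change was -0.41 with all mice (SE 0.97, 95% interval -2.53 to 1.71, edgeR adjusted p = 1.0) and 1.74 without that mouse.

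Ly6c1, the Ly6C gene also found on endothelium, was near the detection limit. The Eµ-PRMT5 mice had 1, 4, 1 and 22 reads, or 0.203, 0.633, 0.228 and 2.54 CPM. The Eµ-PRMT5/TCL1 mice had 27, 10 and 11 reads, or 4.43, 1.43 and 1.69 CPM. Counting error alone gives the mouse with 0.203 CPM a 95% exact Poisson interval of 0.00514 to 1.13 CPM. The log2 fold change was 1.36 (SE 0.89, 95% interval -0.59 to 3.30, edgeR adjusted p = 1.0), and from 0.68 to 2.69 when single mice were left out.

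**Figure D2:**
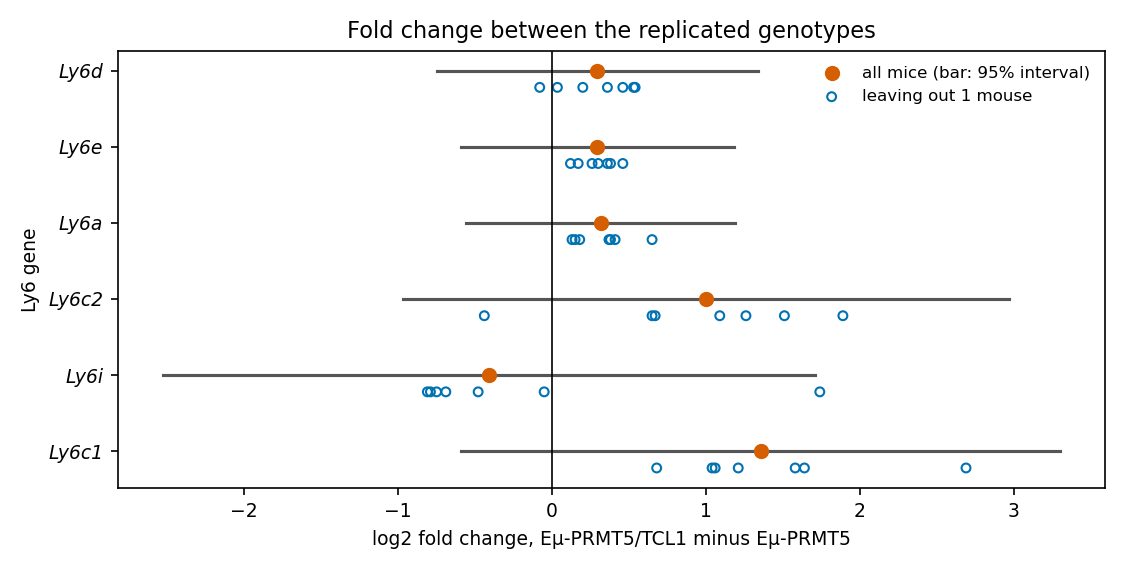
Log2 fold change of each Ly6 gene, Eµ-PRMT5/TCL1 minus Eµ-PRMT5, from the edgeR fit; filled points use all mice with 95% intervals as bars, and open circles leave out 1 mouse each. Every interval crosses 0, and the open circles cross 0 for Ly6d, Ly6c2 and Ly6i.

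The libraries of Eµ-PRMT5/TCL1 mouse 1 and Eµ-PRMT5 mouse 4 were the highest in Ly6c2, in Ly6i and in myeloid marker sums. The summed level of 8 monocyte markers was highest in Eµ-PRMT5/TCL1 mouse 1 (1905 CPM) and Eµ-PRMT5 mouse 4 (1224 CPM), which were also the mice highest in Ly6c2. In the other 6 mice that sum was 295 to 722 CPM. Neutrophil markers, 9 genes, ran in the same direction, with 8639.9 and 5079.9 CPM in these mice and 416 to 4923 CPM in the others. Macrophage markers, 7 genes, were highest in Eµ-PRMT5 mouse 4, at 791 CPM, where Ly6i was highest. The B-cell sum of that mouse, 2219 CPM, was the lowest of the 8. Below these mice the order was not shared. Eµ-PRMT5/TCL1 mouse 3, next in Ly6i at 21.5 CPM, had a monocyte sum of 347 CPM and a neutrophil sum of 631 CPM. Eµ-PRMT5 mouse 3, at 123 CPM of Ly6c2, had the lowest neutrophil sum, 416 CPM. By genotype, the monocyte sum was 295 to 1224 CPM in Eµ-PRMT5 mice, 347 to 1905 CPM in Eµ-PRMT5/TCL1 mice and inside both ranges, at 493 CPM, for Eµ-TCL1, and no monocyte marker was at 0 in any mouse. In bulk samples, fewer cells of a type and less RNA per cell cannot be told apart, and the part of myeloid cells in the Ly6c2 and Ly6i levels was not tested.

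**Figure D3:**
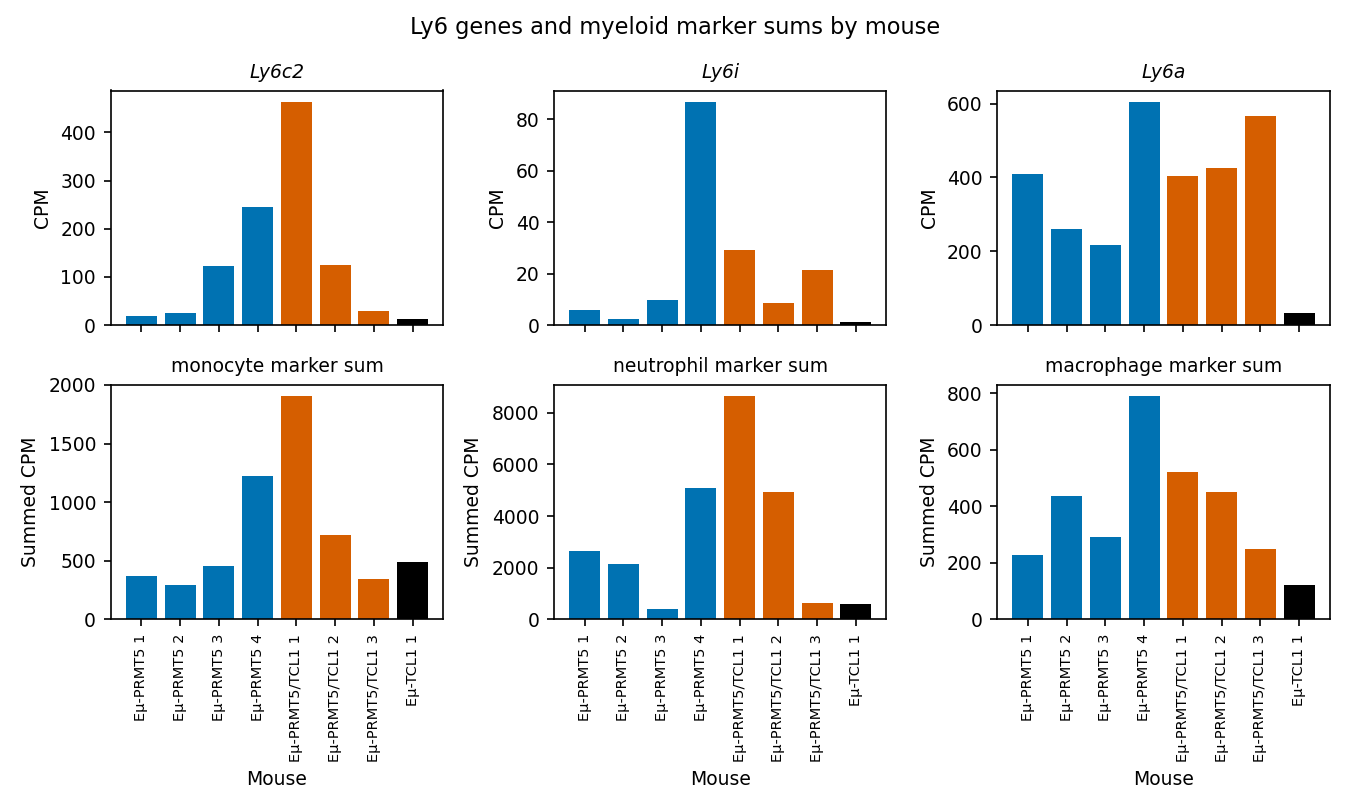
Bars give the level of Ly6c2, Ly6i and Ly6a (CPM, top) and the summed CPM of monocyte, neutrophil and macrophage markers (bottom) in each of the 8 mice (blue Eµ-PRMT5, orange Eµ-PRMT5/TCL1, black Eµ-TCL1). Eµ-PRMT5/TCL1 mouse 1 has the tallest monocyte and neutrophil bars and the tallest Ly6c2 bar (464 CPM), and Eµ-PRMT5 mouse 4 has the tallest macrophage and Ly6i bars.

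Over the 7 mice that carry the PRMT5 transgene, none of the 15 pairs of Ly6 genes was correlated after adjustment over the pairs. The strongest relation was between Ly6a and Ly6d, with Pearson's r = 0.776 (exact permutation p = 0.0407, adjusted p = 0.263). By Spearman's coefficient rho was 0.679 (p = 0.11 by exact permutation, adjusted p = 0.412), and r was 0.674 once the 2 most extreme mice in Ly6a were dropped. By rank, the strongest was Ly6c1 with Ly6c2, at rho = 0.821 (exact permutation p = 0.0341, adjusted p = 0.24) and r = 0.669 (exact permutation p = 0.105, adjusted p = 0.263). Dropping the 2 mice most extreme in Ly6c1 gave r = 0.856, and the shared sequence of that pair stands beside this value. The 7 mice are of 2 genotypes, too few of each for a relation within a genotype.

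The single Eµ-TCL1 library had less of 3 of the 6 genes than any other library. Ly6a was at 33.0 CPM (122 reads) against 218 to 605 CPM in the others. The mean level was 11.3-fold higher in Eµ-PRMT5 and 14.1-fold higher in Eµ-PRMT5/TCL1 mice, and the lowest of the other mice was still 6.6-fold higher. The exact Poisson interval of the Eµ-TCL1 value was 27.4 to 39.4 CPM, which covers counting error only.

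Ly6i was at 1.35 CPM in the Eµ-TCL1 mouse, from 5 reads, with an exact Poisson interval of 0.439 to 3.15 CPM. The next lowest, Eµ-PRMT5 mouse 2, had 2.37 CPM from 15 reads, with an interval of 1.33 to 3.92 CPM. These intervals overlap, so Ly6i was low in both of these mice and their order was not resolved at this depth.

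Ly6c2 was at 11.9 CPM in the Eµ-TCL1 mouse, with an exact Poisson interval of 8.64 to 16.0 CPM that overlapped that of Eµ-PRMT5 mouse 1, 14.5 to 22.2 CPM. It was 8.64-fold below the Eµ-PRMT5 mean and 17.2-fold below the Eµ-PRMT5/TCL1 mean. The latter rested on single mice: on the log2(CPM + 1) scale it ran from -2.23 without Eµ-PRMT5/TCL1 mouse 1 to -4.22 without Eµ-PRMT5/TCL1 mouse 3. The monocyte sum of the Eµ-TCL1 mouse, 493 CPM, was above those of 4 of the 7 other mice, whereas its macrophage sum, 122 CPM, was below all 7 (227 to 791 CPM). In the macrophage list, Cd68 and Adgre1 were below all 7 others, whereas Vcam1 and Hmox1 were not. Of the monocyte sum of the Eµ-TCL1 mouse, 174 CPM came from Fn1. Its neutrophil sum was 592 CPM, against 416 to 8639.9 CPM in the others.

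Ly6d, Ly6e and Ly6c1 did not share this pattern. Ly6d in the Eµ-TCL1 mouse, at 889.8 CPM, was exceeded by 3 of the 7 others and Ly6e, at 2462 CPM, by 5 of 7. Ly6c1 was at 2.43 CPM, exceeded by 2 of 7. Ly6e lies 19.6 kb from Ly6i, with Ly6a on the far side of Ly6i. In the library in which Ly6a was lowest, Ly6e was inside the range of the other mice. The part of position in these levels was not tested.

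On the log2(CPM + 1) scale, which understates the change of low genes, the Eµ-TCL1 mouse differed from the mean of Eµ-PRMT5 mice by -3.34 for Ly6a, -2.37 for Ly6i and -2.27 for Ly6c2. From the mean of Eµ-PRMT5/TCL1 mice it differed by -3.76, -2.99 and -3.21. Of 13173 genes, 3 had a lower difference from Eµ-PRMT5 than Ly6a, 17 than Ly6i and 25 than Ly6c2. As the members were chosen on this library, nothing is read from these ranks. The 3 below Ly6a were Casp1, an inflammatory protease, Nkg7, a cytotoxic granule protein, and Slpi, a protease inhibitor, named after their values were seen. The differences of the other genes from Eµ-PRMT5 were 0.45 for Ly6d, 0.014 for Ly6e and 1.01 for Ly6c1, and from Eµ-PRMT5/TCL1 they were 0.076, -0.29 and 0.063.

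**Figure D4:**
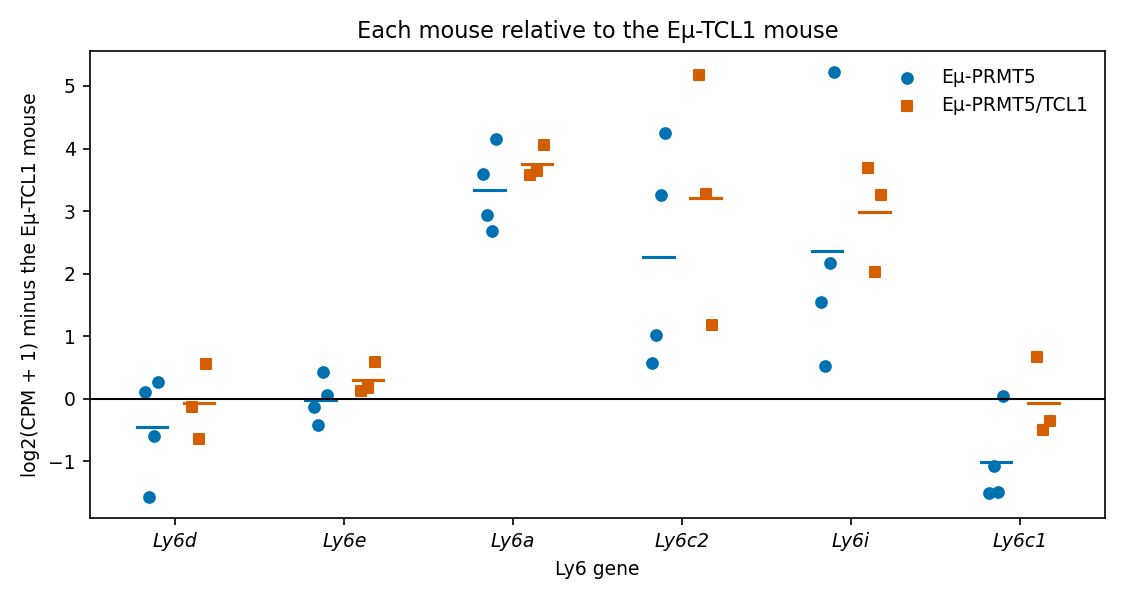
Each of the 7 mice with the PRMT5 transgene relative to the Eµ-TCL1 mouse, as the difference in log2(CPM + 1), with the Eµ-TCL1 mouse at 0; short lines are group means. All 7 mice lie above 0 for Ly6a, Ly6c2 and Ly6i, closely grouped for Ly6a and spread for Ly6c2 and Ly6i, while mice fall on both sides of 0 for Ly6d, Ly6e and Ly6c1.

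As the background of these values, the Eµ-TCL1 library was below the whole range of the 7 others in 14.2% of all genes tested and above it in 21.3%. With over 4-fold difference from both means as well, 0.258% of genes were lower, among them Ly6a, Ly6c2 and Ly6i, and 0.911% were higher, with no member among them. The members were chosen on this library, so nothing is read from their share. Without Eµ-PRMT5 mouse 4 only Ly6a stayed past 4-fold, with Ly6i at -1.41 and Ly6c2 at -1.61 from the Eµ-PRMT5 mean, and without Eµ-PRMT5 mouse 3 Ly6c2 was at -1.94. With 1 Eµ-TCL1 mouse, the genotype and the animal cannot be told apart.

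Of the other genes of the Ly6/uPAR family, 34 of 38 were found in the matrix, counting 3 listed under older symbols, and 11 were tested. None was called and 7 of the 11 fold changes were above 0, beside 5350 of 13173 over all genes, with a median of 0.04. Plaur, the urokinase receptor, was the most abundant, at 179 to 446 CPM in Eµ-PRMT5 and 116 to 446 CPM in Eµ-PRMT5/TCL1 mice. It was at 71.1 CPM in the Eµ-TCL1 mouse and was the only 1 of the 11 there below all 7 others, while 2 of the 11 were above them, beside 14.2% and 21.3% of all genes. I830127L07Rik, an older symbol of Ly6a2, which lies in the same cluster, ran from 11.7 to 61.8, from 14 to 79.5 and at 35.4 CPM in the same order. Pinlyp, an inhibitor of phospholipase, had the lowest p of those tested, at a log2 fold change of 1.79 (SE 0.81, edgeR adjusted p = 1.0). Its level was 0.158 to 6.61 CPM in Eµ-PRMT5, 5.86 to 17.5 CPM in Eµ-PRMT5/TCL1 and 32.7 CPM in the Eµ-TCL1 mouse. The complement regulators Cd59a and Cd59b had log2 fold changes of -0.25 and 0.04, and the nicotinic receptor modulator Lynx1 had 0.04. Ly6g, the neutrophil antigen, was at 0 to 12.5 CPM in Eµ-PRMT5, 5.15 to 8.2 CPM in Eµ-PRMT5/TCL1 and 1.08 CPM in the Eµ-TCL1 mouse. The other tested genes at a mean of 1 CPM or more were Ly6k (-1.58), 2010109I03Rik or Ly6m (-0.88), Ly6g6f (-0.13) and Lypd5 (0.12), as log2 fold changes with an edgeR adjusted p of 1.0 each. A further 13 genes at that level, from Ly6f and Psca to Lypd1 and Tex101, lacked a value in at least 1 mouse and were not tested.

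All members need a GPI anchor to reach the surface, and the genes that build and trim the anchor were described beside them. Of 30 tested, 0 were called, 8 had a fold change above 0 and the median was -0.13, beside 5350 of 13173 and -0.09 over all genes. The Eµ-TCL1 mouse was below all 7 others for 2 of these 30 genes and above them for 10, beside 14.2% below and 21.3% above over all genes, and none was past 4-fold below. The 2 were Pigu and Dpm2, named after their values were seen, as were the genes of the other lists below all 7 that the rule did not name. Pigs, a subunit of the transamidase that attaches the anchor, had 133 to 219.5 CPM in Eµ-PRMT5, 116 to 144 CPM in Eµ-PRMT5/TCL1 and 142 CPM in the Eµ-TCL1 mouse. The cargo receptors Tmed2 and Tmed10, which carry anchored proteins out of the endoplasmic reticulum, were at 379 and 283 CPM in the Eµ-TCL1 mouse, within the ranges of the others. Fold changes were largest in size for the mannosyltransferase Pigz (-2.68), Pigp (-0.71) and Pigh (-0.60), each with an edgeR adjusted p of 1.0, and Pigz was at 0 CPM in at least 1 Eµ-PRMT5/TCL1 mouse.

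Interferon receptors and their signalling genes, 13 tested, likewise gave no call. Among them 8 fold changes were above 0, beside 5350 of 13173 over all genes, and the median was 0.19. In the Eµ-TCL1 mouse 5 of the 13 were below all 7 others and none was above, beside 14.2% and 21.3% of all genes, and none was past 4-fold. They were Irf1, Irf7 and the receptor chains Ifnar1, Ifnar2 and Ifngr2. For Ifnar1 the value there and the lowest of the others were both 51.9 CPM at this rounding, and for Irf7 they were 17.6 and 18.3 CPM. No counting interval was computed for these genes, so the order of such narrow gaps was not resolved. Ifngr2, a chain of the interferon-γ receptor, was at 48.1 CPM against 63.8 to 266 CPM over the 7 others, and Ifnar2, of the type I receptor, at 16 CPM against 20.9 to 121 CPM. Irf1, a transcription factor that interferon-γ induces, was at 54.3 CPM there, against 121 to 248 CPM in Eµ-PRMT5 and 176 to 211 CPM in Eµ-PRMT5/TCL1 mice. Irf7, a factor of the type I response, was at 17.6 CPM against 18.3 to 86.8 and 43.3 to 117 CPM. Between the replicated genotypes Irf7 had a log2 fold change of 0.69 (SE 0.54, edgeR adjusted p = 1.0) and Irf9 one of 0.47. The kinases Jak1 and Tyk2, at 457 and 151 CPM in the Eµ-TCL1 mouse, were inside the spread of the other mice.

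Interferon-stimulated genes, of which 16 of 20 were tested, were not called between the replicated genotypes. Among the 16, 12 fold changes were above 0, beside 5350 of 13173 over all genes, and the median was 0.40. The difference of the Eµ-TCL1 mouse had a median over these 16 genes of -0.74 from Eµ-PRMT5 and -1.46 from Eµ-PRMT5/TCL1, beside 0.08 and 0.12 over all genes. It was below all 7 others for 3 of the 16, Oas1a, Rtp4 and Irgm1, a share near the 14.2% of all genes. Gbp2, a guanylate-binding protein, was at 67.9 CPM there, 36.9 to 545 CPM in Eµ-PRMT5 and 215 to 598 CPM in Eµ-PRMT5/TCL1 mice. Irgm1, an immunity-related GTPase, was at 43.5 CPM against 71.0 to 257 and 73.9 to 167 CPM. Igtp, of the same GTPase family, was at 140.3 CPM against 55.6 to 515 and 229 to 256 CPM. Zbp1, a sensor of nucleic acids, was at 31.4 CPM against 13.6 to 99.3 and 90 to 115 CPM, and the chemokine Cxcl10 at 2.16 CPM against 2.96 to 20.1 and 1.23 to 41.2 CPM. The low values of the Eµ-TCL1 mouse in Ly6a, Irf1, Irgm1, Oas1a, Rtp4, Ifnar2 and Ifngr2 were thus outside the range of the other mice. Oas1a was at 2.97 CPM against 3.64 to 38.9 CPM, and Rtp4 at 2.16 CPM against 3.96 to 36.7 CPM, without counting intervals. The values in Gbp2, Igtp, Zbp1 and Cxcl10 were inside the range of the other mice. Irf7 was below that range by a narrow margin only, at 17.6 against 18.3 CPM. The part of interferon signalling in the Ly6a level was not tested.

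Genes whose level followed each Ly6 gene most closely over the 8 libraries were named by Pearson's r of log2 CPM, as a description. For Ly6a they were 2410015M20Rik (r = 0.983), Irf1 (0.965) and Mlst8 (0.945). Over the 7 mice without the Eµ-TCL1 library these were 0.899, 0.821 and 0.523, so the likeness to Mlst8 rested in large part on that library. For Ly6c2 they were Coro1c, Clta and Sema4a, at 0.958 to 0.962. For Ly6i they were Ndufb11, Diaph3 and Hist1h2ap, at 0.973 to 0.978. For Ly6e the closest were Slc37a4, Cyb561a3 and Ptpn18, at 0.960 to 0.986, and for Ly6d Gm20939, Oxct1 and Mospd3, at 0.933 to 0.980. For Ly6c1, at a handful of reads, they were Zfp410, Zfp972 and 4930579G24Rik, at 0.913 to 0.929. With 8 points and 13173 genes to choose from, every member had a gene at 0.929 or above, and the points share library depth and composition.

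T cells also carry Ly6a and Ly6C. The summed level of 7 T-cell markers was 439 CPM in Eµ-PRMT5 mouse 4, the mouse with the most Ly6a, and 456 CPM in the Eµ-TCL1 mouse, the one with the least. In the other 6 it was 543 to 1232 CPM, and Cd8a and Cd4 lacked a count in at least 1 mouse. Most of the sum came from Cd2 and Lck, and the CD3 chains differed from one another. In the Eµ-TCL1 mouse Cd3e was at 21.6 CPM, against 6.43 to 55.2 CPM in the others. Cd3g was at 47.0 CPM there against 14.2 to 95.1 CPM, and Cd3d at 2.43 CPM against 2.15 to 44.7 CPM. In Eµ-PRMT5 mouse 4, Cd3e was at 6.57 CPM, Cd3d at 2.65 CPM and Cd3g at 95.1 CPM. The part of T cells in the Ly6a level was not tested. Plasma-cell markers summed to 518 to 5760.3 CPM over the 8 mice, with 2068 CPM in the Eµ-TCL1 mouse. The 6 markers of B-1 and CLL-like B cells summed to 829 CPM there and to 637 to 1888 CPM in the others, and the B-lymphoid progenitor list to 105 CPM against 29.9 to 127 CPM. NK-cell markers were at 38.1 CPM there against 27.5 to 377 CPM, erythroid markers at 23.0 CPM against 21.4 to 375 CPM, plasmacytoid dendritic cell markers at 437 CPM against 401 to 920 CPM, and endothelial and stromal markers at 259 CPM against 96.2 to 357 CPM. Macrophage markers were thus the one list of the 12 in which the sum of the Eµ-TCL1 mouse was lowest. Of the 4 macrophage markers tested, 2 were below all 7 others there, Cd68 and Adgre1. Vcam1 and Hmox1, at 19.5 and 25.7 CPM, were inside the range of the other mice. C1qa, C1qb and C1qc lacked a value in at least 1 mouse. C1qc was at 0.317 CPM in Eµ-PRMT5 mouse 2 and at 1.35 CPM in the Eµ-TCL1 mouse.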

How the data were processed

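Splenic B cells of 8 mice were profiled by bulk RNA-seq, and the counts the authors deposited are raw reads per gene symbol. The labels' processing notes name GRCm38, Subread, featureCounts and DESeq2 1.20.0. The study's methods describe a stranded TruSeq workflow, whose kit the labels repeat, with STAR alignment and featureCounts on an Ensembl annotation, and a low-input preamplified workflow for these genotypes at this stage, with no aligner or annotation named. Which made these counts is not settled, and the strand setting of the counting was not given in the sources used here. The matrix left 36919 cells without a value. Symbols with a value in every library (14072 of 24902) were filtered by expression in a group, leaving 13173. Library sizes ran from 3356297 to 10252426 counts. Normalization by TMM and the quasi-likelihood test (glmQLFit, glmQLFTest) were run in edgeR 4.0.16 (R 4.3.3) on all 8 libraries, with Benjamini-Hochberg adjustment over all genes tested and calls at adjusted p under 0.05 and over 4-fold. Intervals of fold changes are 95% t intervals from that fit. Poisson intervals cover counting error only. The Eµ-TCL1 mouse was compared as log2(CPM + 1), with no test. Alternatives were DESeq2 1.42.0, other factors and filters, missing values set to 0, other pseudocounts, a replicate block and leaving out each mouse.

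Each library is a separate mouse by its title, so p-values measure the spread between mice. The members and lists were chosen with earlier results of these data known. Named genes were all 6 members, family genes with a mean of at least 1 CPM, and of each pathway list the 3 most abundant and the 3 with the largest fold change, of which 1 is not reported here. Those of a pattern were the 3 genes with the highest correlation. Positions are from GENCODE vM21 on GRCm38 and sequences from its transcripts. The human transgenes and the study's single-cell files were not analysed here. The scripts were tested on simulated data.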

Additional observations from a re-analysis of the deposited data

Results flagged for a closer look

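Among the 4 Eµ-PRMT5 mice, the level of each member and the sum of each marker list were examined for a mouse far from the rest. Dixon's test was used on CPM without a log transform, for 18 results in all. Chance flags about 1 in 20 (0.9 here) where values are normally distributed. CPM values are skewed, so that rate is approximate and a flag can depend on the scale. Ly6i in Eµ-PRMT5 mouse 4, at 86.9 CPM, stood apart from the other 3 at 2.37 to 9.57 CPM. The summed level of NK-cell markers in Eµ-PRMT5 mouse 3, at 377 CPM, stood apart from 61.5 to 76.3 CPM in the others. Most of that sum came from Nkg7, at 279 CPM there against 10.9 to 32.5 CPM in the other Eµ-PRMT5 mice, and from Prf1, at 64.1 CPM. Ncr1 and Klrb1c were also highest in that mouse, at low levels. Klrk1, at 8.43 CPM, and Gzma, at 1.14 CPM, were the lowest of the values present. Which cells gave the Nkg7 and Prf1 reads was not tested.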

How the results depend on the processing

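No member was called under any setting run. With DESeq2 the calls were 3 genes higher and 1 lower, against 0 and 0 in edgeR, and all other settings gave 0. Of 92 alternative fold changes of members between the replicated genotypes, 87 kept their sign. Leaving out single mice moved Ly6c2 between -0.44 and 1.89, Ly6d between -0.08 and 0.54 and Ly6i between -0.81 and 1.74. Same-numbered mice deviated together at correlations of 0.0213, 0.106 and 0.162, so they share only a number. With replicate number as a block, mice 1 to 3 of each genotype gave Ly6i a log2 fold change of 1.77 (edgeR adjusted p = 0.452). The same 6 mice without the block, a setting added after the data were seen, gave 1.74, so the sign followed the mice and not the pairing. The block called 0 genes, with an unadjusted p under 0.05 for 495 genes upward and 331 downward, against 374 and 368 without it.

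For the Eµ-TCL1 mouse, library size alone shifted the median of all genes from 0.08 to 0.32 (from Eµ-PRMT5) and from 0.12 to 0.33 (from Eµ-PRMT5/TCL1). Of 90 alternative differences, 78 kept their sign and stayed within 1 SD of the group, 8 changed sign and 4 moved further. From Eµ-PRMT5, Ly6c1 became 1.94 with a pseudocount of 0.1, and Ly6e became -0.25 with missing values as 0 and -0.12 to 0.16 without single mice. From Eµ-PRMT5/TCL1, missing values as 0 gave Ly6a -4.04, Ly6c1 -0.14, Ly6d -0.22 and Ly6e -0.58, a pseudocount of 5 gave Ly6i -1.86, and leaving out single mice gave Ly6c1 -0.15 to 0.43 and Ly6d -0.21 to 0.39. The number of genes lower past 4-fold, 34, became 20 with library size alone, 64 and 9 with pseudocounts of 0.1 and 5, and 94 with missing values as 0. The number higher, 120, became 251, 300, 31 and 329. The causes of these shifts were not tested. The stricter count filter removed Ly6c1 and Ly6i, and the 6-mouse fits removed Ly6c1, so these gave no value. Depth limits Ly6c1 and the Eµ-TCL1 value of Ly6i.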
